A study of Mus musculus with 38 samples.

Results

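Somatostatin and growth hormone-releasing hormone (GHRH) are the 2 hypothalamic peptides that set the release of growth hormone from the pituitary. The genes described here are those of the peptides (Sst, Cort and Ghrh) and of the 5 somatostatin receptors (Sstr1 to Sstr5). They are 8 of the 19937 genes that have a probe set assigned to 1 symbol on the Affymetrix Mouse Gene ST 1.0 array, and each of the 8 has exactly 1 such probe set. They were chosen by name and not by a rule on measured values, although earlier results of these data were known.

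Hypothalamic RNA came from 38 female FVB/N mice, with 1 array per mouse. In the AAV experiment, WT mice were injected bilaterally into the hypothalamus at 8 weeks of age with rAAV5 encoding the first 853 amino acids of human huntingtin (HTT) with 18 CAG repeats (18Q, n = 5) or 79 CAG repeats (79Q, n = 8), under the neuronal human Synapsin-1 promoter. Uninjected WT mice (WT control, n = 5) were the reference, all 3 groups were collected at 12 weeks of age, 4 weeks after the injection, and no group received a vector without HTT, so that injection, vector and HTT fragment cannot be told apart. BACHD mice carry full-length human mutant HTT with 97 CAG repeats, expressed ubiquitously, and were compared with WT littermates at 2 months (6 BACHD and 6 WT) and at 10 months (5 BACHD and 3 WT). The values are log2 intensities after Robust Multi-Array Averaging (RMA), array medians lay between 7.16 and 7.46, and a difference of 1 is a doubling. The 3 experiments were taken as normalized apart, so that each comparison of groups stays within 1 experiment. Only the test of the change with age used arrays of both BACHD experiments, on differences each taken within 1 age. As a check of the tissue, the mean level of 10 hypothalamus markers was 9.26 to 10.16 over the 38 arrays.

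Somatostatin inhibits and GHRH stimulates the somatotrophs, the pituitary cells that make growth hormone. GHRH neurons lie mainly in the arcuate nucleus, whereas the somatostatin neurons that project to the median eminence lie mainly in the periventricular nucleus, and somatostatin is also made by interneurons throughout the brain. Cortistatin, the product of Cort, is a related peptide that binds the same receptors. The receptors are coupled to inhibitory G proteins, and Sstr1 and Sstr4 form one structural class, with Sstr2, Sstr3 and Sstr5 forming the other.

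Transcription of the somatostatin gene is a textbook case of control by cAMP through the transcription factor CREB, which binds the cAMP response element (CRE). The sequences directly before the transcription start are shown for the members that hold a complete CRE. The RefSeq promoter table (GRCm38.p6) matched 6 of the 8 members with 8 windows, each reaching from 250 bases before to 50 bases after a start. The letters TGACGTCA, which read the same on both strands, occurred in 2 of the 8 windows, those of Sst and Sstr2, and in 1.79% of all 32851 windows in the table. The element began 48 bases before the start of Sst and 58 bases before that of Sstr2. The 100 bases before each start follow, 5′ to 3′ on the gene's own strand, with the CRE in capitals. The Sst stretch is chr16:23890845-23890944 (minus strand) and the Sstr2 stretch is chr11:113619227-113619326 (plus strand).
Sst: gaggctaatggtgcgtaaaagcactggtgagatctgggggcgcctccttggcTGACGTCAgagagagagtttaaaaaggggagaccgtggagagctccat
Sstr2: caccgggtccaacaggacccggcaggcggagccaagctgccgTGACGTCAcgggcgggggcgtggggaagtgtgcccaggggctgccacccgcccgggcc
The 2 windows of Ghrh and the others of Cort, Sstr3 and Sstr4 held no complete TGACGTCA, which says only that these letters are not in those windows.

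Array signal without matching RNA was gauged from 7 probe sets of Y-linked genes, which have no RNA in female mice. Their means ran from 3.26 to 7.87, the highest being Sry with array values from 7.52 to 8.10. The next highest was Kdm5d, with a mean of 4.75 and array values up to 4.99. Sst, Ghrh, Sstr1, Sstr2 and Sstr4 lay above every Y-linked probe set of their own array in 38 of 38 arrays. Cort and Sstr3 did so in 2 of 38 arrays each, and Sstr5 in 0 of 38. The signals of Cort, Sstr3 and Sstr5 are therefore not set apart from that of Sry, and their differences are given as ranges. This limit rests on the Sry probe set alone. The lowest values of Cort, Sstr3 and Sstr5 were 7.19, 7.30 and 5.98, above all the other Y-linked probe sets.

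Sst mRNA ran from 11.91 to 12.80 over the 38 arrays. From the lowest to the highest, the group means of Sst were 12.33 in BACHD at 10 months, 12.38 in 79Q, 12.45 in 18Q, 12.45 in WT at 10 months, 12.49 in WT at 2 months, 12.59 in BACHD at 2 months and 12.65 in WT control. Each neighbouring pair in this order differed by less than the larger of the 2 SDs, which ran from 0.065 in WT control to 0.32 in 18Q. Ghrh spread more, from 8.25 to 10.09, with means of 8.72 in 79Q, 8.996 in WT control, 9.01 in 18Q, 9.32 in WT at 2 months, 9.42 in WT at 10 months, 9.49 in BACHD at 10 months and 9.56 in BACHD at 2 months. Only the step from 79Q to WT control was larger than both SDs (0.19 and 0.21). Steps between experiments were not tested. Pooled within groups, the SD was 0.27 for Ghrh and 0.20 for Sst against a median of 0.13 over all probe sets, and 0.11 to 0.14 for the other 6 members.

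**Figure D1:**
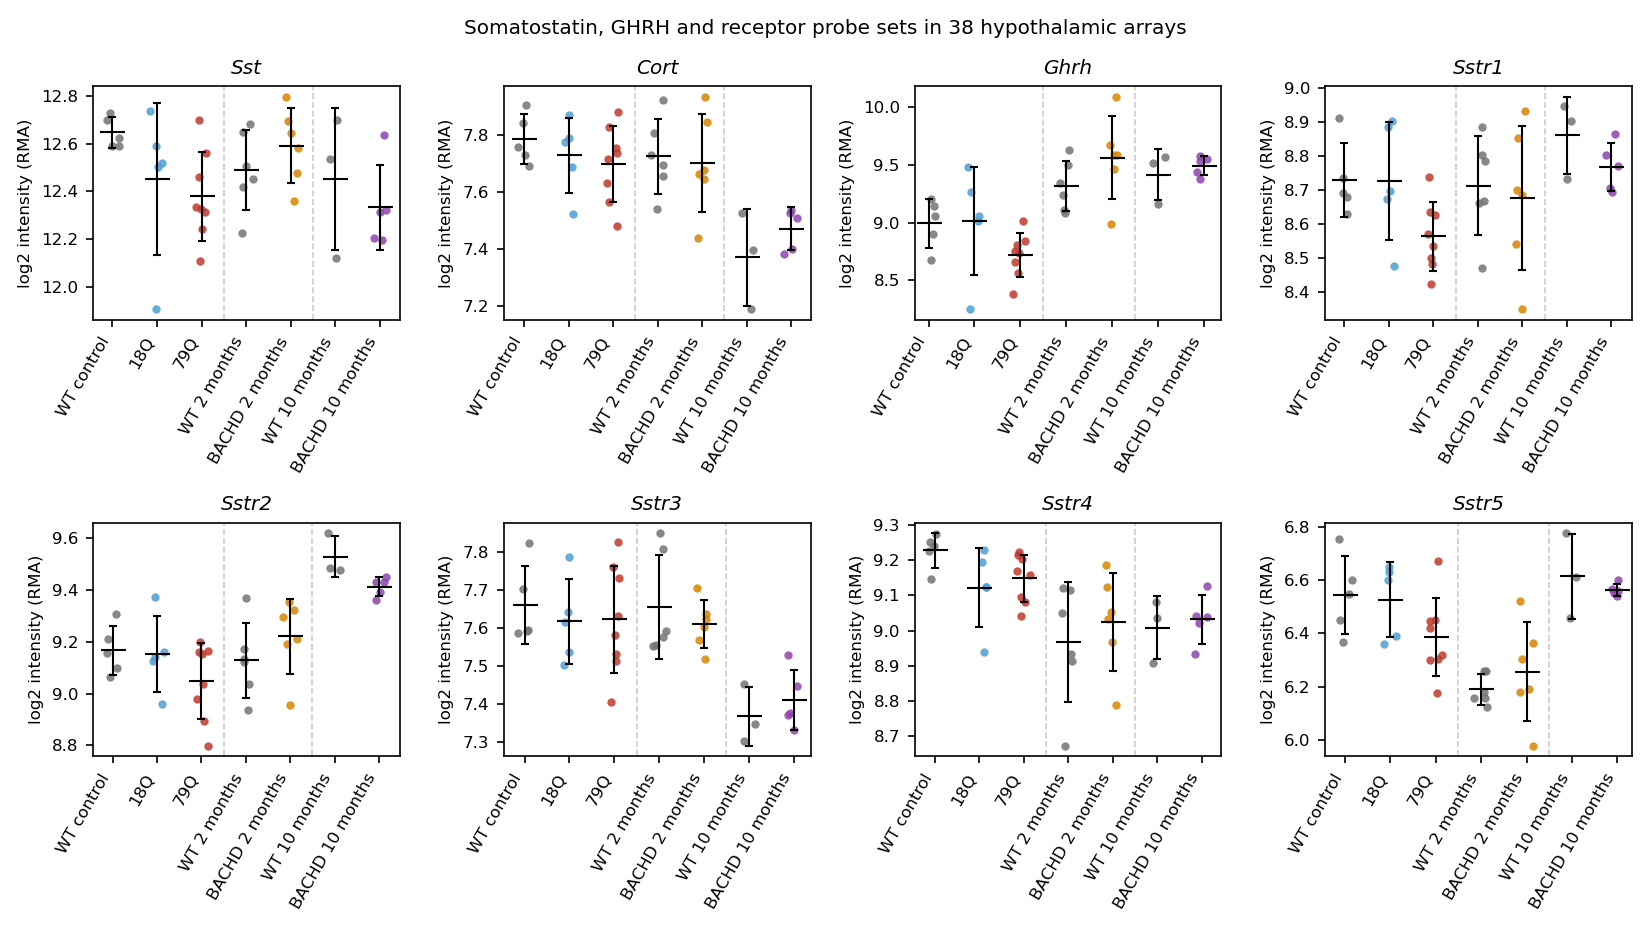
Log2 intensity (RMA) of the 8 members in each of the 38 arrays, with points for single mice, horizontal bars for group means and whiskers for 1 SD; dashed lines separate the 3 experiments, and the vertical scales differ between genes. The lowest Sst (11.91) and Ghrh (8.25) values belong to the same 18Q mouse.

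The AAV comparisons asked what the 2 HTT fragments do to hypothalamic gene expression. Sst in the WT control arrays was 12.59, 12.59, 12.70, 12.62 and 12.73 (replicates 1, 2, 4, 5 and 7), and in the 18Q arrays 12.59, 12.52, 11.91, 12.50 and 12.74 (replicates 1, 2, 3, 4 and 6). The 79Q arrays ran from 12.11 over a median of 12.33 to 12.70. In 79Q, 7 of 8 arrays were below the lowest control, and replicate 5 lay within the control range. In 18Q, 4 of 5 arrays were below it, replicate 1 by less than the second decimal, and replicate 6 was the highest of all 3 groups. The 79Q vs. WT difference of Sst was -0.27 (SE 0.11, 95% CI -0.50 to -0.029), or 0.83-fold, and did not pass the threshold of limma with Benjamini-Hochberg adjustment over all probe sets (adjusted p = 0.284, exact permutation p = 0.0109, not adjusted). The 18Q vs. WT difference was -0.20 (SE 0.12, 95% CI -0.46 to 0.066, limma adjusted p = 0.578), and without 18Q replicate 3 it was -0.060. 79Q vs. 18Q gave -0.070 (95% CI -0.31 to 0.17).

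Ghrh, the stimulatory peptide, had a larger difference between the 2 fragments than Sst by value, although neither passed the test. The controls had 8.68, 9.06, 8.90, 9.15 and 9.20, and the 18Q arrays 9.27, 9.02, 8.25, 9.06 and 9.48, in the replicate order given above. The 79Q arrays ran from 8.38 over a median of 8.75 to 9.02. All 79Q arrays lay within or below the control range, whereas the 18Q arrays lay on both sides of it. Ghrh differed by -0.28 in 79Q vs. WT (SE 0.16, 95% CI -0.61 to 0.051, limma adjusted p = 0.464, exact permutation p = 0.0342) and by 0.018 in 18Q vs. WT (95% CI -0.35 to 0.38). The direct comparison, 79Q vs. 18Q, gave -0.30 (SE 0.16, 95% CI -0.62 to 0.033, limma adjusted p = 1.0, exact permutation p = 0.140), and 7 of 8 79Q arrays were below the 18Q mean. Without 18Q replicate 3 this difference was -0.49 with an unadjusted p of 0.000622, still with an adjusted p of 0.760, and 18Q vs. WT moved to 0.21. Without 18Q replicate 6, the 79Q vs. 18Q difference was -0.18 (unadjusted p = 0.261).

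Among the receptors, Sstr1 lay lower in 79Q than in both other AAV groups by value. Sstr1 was 8.63, 8.91, 8.74, 8.69 and 8.68 in the controls, 8.88, 8.70, 8.48, 8.90 and 8.67 in 18Q, and 8.42 to 8.74 with a median of 8.55 in 79Q. Of the 79Q arrays, 6 of 8 were below every control. The difference of Sstr1 was -0.17 in 79Q vs. WT (SE 0.070, 95% CI -0.31 to -0.019, limma adjusted p = 0.283, exact permutation p = 0.0202), -0.0028 in 18Q vs. WT and -0.16 in 79Q vs. 18Q (SE 0.070, limma adjusted p = 1.0, exact permutation p = 0.0653). Sstr4, of the same structural class, was 9.23, 9.25, 9.15, 9.28 and 9.24 in the controls, 9.12, 9.12, 8.94, 9.20 and 9.23 in 18Q, and 9.04 to 9.23 with a median of 9.16 in 79Q. All 8 79Q arrays were below the control mean, although the groups overlapped. Sstr4 differed by -0.080 in 79Q vs. WT (SE 0.047, limma adjusted p = 0.493, exact permutation p = 0.0404) and by -0.11 in 18Q vs. WT (SE 0.052, 95% CI -0.22 to 0.0043, limma adjusted p = 0.426).

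Sstr2, the receptor through which somatostatin inhibits many neurons and pituitary cells, was 9.06, 9.10, 9.15, 9.31 and 9.21 in the controls, 9.14, 9.13, 8.96, 9.37 and 9.16 in 18Q, and 8.80 to 9.20 with a median of 9.09 in 79Q. The 3 groups overlapped. Its differences were -0.12 in 79Q vs. WT (95% CI -0.27 to 0.039, limma adjusted p = 0.528) and -0.015 in 18Q vs. WT (95% CI -0.19 to 0.16). The 3 members not set apart from the Sry signal were Cort, Sstr3 and Sstr5. They differed by -0.16 to -0.037 in 79Q vs. WT and by -0.056 to -0.017 in 18Q vs. WT, with limma adjusted p of 0.390 or more.

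Counted together, 0 of 8 members passed the adjusted threshold of 0.05 in 18Q vs. WT, where 2.11% of all probe sets passed, 0 of 8 in 79Q vs. WT, where 2.07% passed, and 0 of 8 in 79Q vs. 18Q, where 0% passed. At an unadjusted limma p under 0.05 the members counted 0 of 8 (12.6% of all probe sets), 2 of 8 (14% of all) and 1 of 8 (4.24% of all) in the same order. In 79Q vs. WT, 8 of 8 members were below 0, against 57.8% of all probe sets, with a median of -0.14 against -0.016 over all. In 18Q vs. WT, 7 of 8 were below 0, against 55% of all, with a median of -0.030 against -0.011. No member had AAV groups that did not overlap, against 4.07% of all probe sets for 18Q vs. WT, 2.71% for 79Q vs. WT and 0.0834% for 79Q vs. 18Q. In 79Q vs. 18Q, 6 of 8 were below 0, against 54.6% of all. The 18Q and 79Q comparisons share the 5 control arrays, and these counts describe the members without testing them as a group. In bulk tissue, fewer cells of a type and less RNA per cell cannot be told apart.

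**Figure D2:**
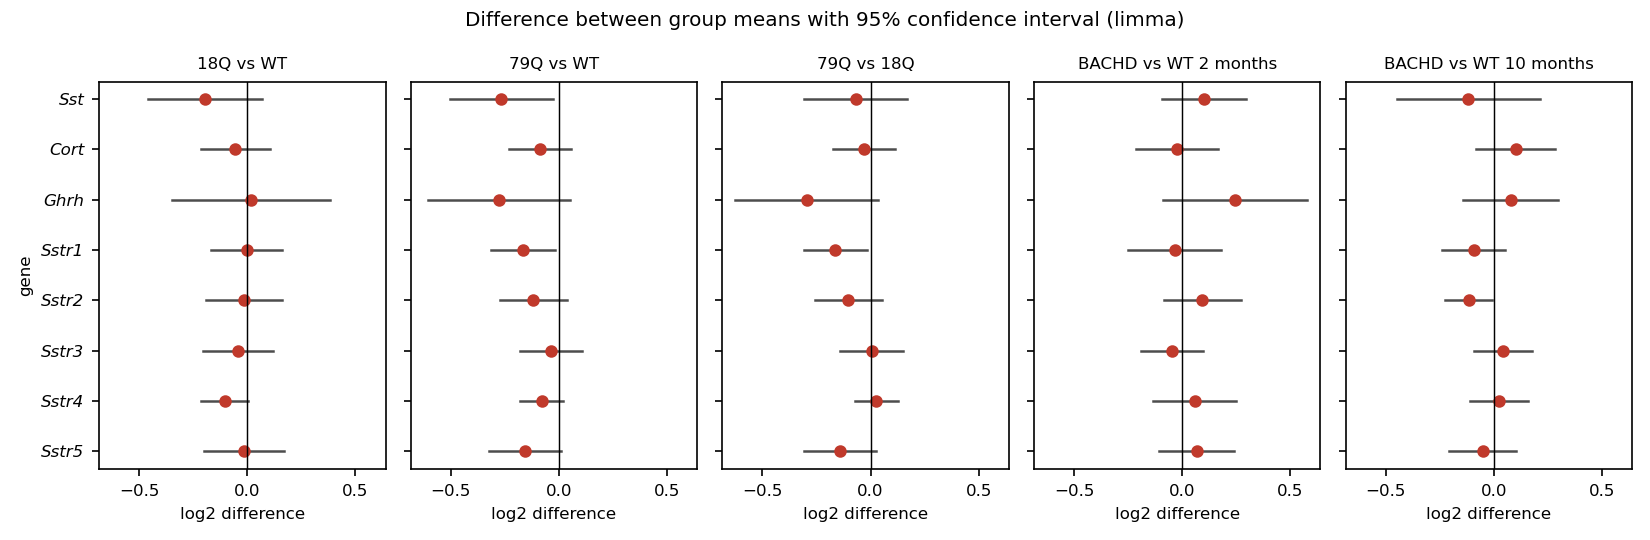
Difference of the group means on the log2 scale (points) with the 95% confidence interval of limma (lines) for the 8 members in 5 comparisons. The interval excludes 0 for Sst and Sstr1 in 79Q vs. WT, for Sstr1 in 79Q vs. 18Q and for Sstr2 in BACHD vs. WT at 10 months, and the largest interval bound in size is -0.62.

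By value, hypothalamus markers and Sst were lower in both injected groups, whereas Ghrh was lower in 79Q but not in 18Q (0.018 vs. WT). The hypothalamus marker list (Hcrt, Pmch, Avp, Oxt, Trh, Sim1, Otp, Nkx2-1, Nr5a1 and Rax) had 10 of 10 genes below 0 in 18Q vs. WT (median -0.18) and 10 of 10 in 79Q vs. WT (median -0.28), with 0 of 10 past the adjusted threshold in either. The mean level of this list per array was 10.03 to 10.14 in the controls, 9.26 to 10.16 in 18Q and 9.50 to 9.98 in 79Q. The thalamus list (Prkcd, Ramp3, Tcf7l2, Ptpn3, Rora, Lef1, Plekhg1 and Synpo2) averaged 8.32 to 8.72 in the controls. It was higher than in every control in 4 injected arrays, 18Q replicate 3 (9.11) and 79Q replicates 6, 7 and 8 (9.02, 8.85 and 9.02), and 8.34 to 8.51 in the other 9 injected arrays. The same 4 arrays had the lowest hypothalamus marker levels of the 18, 9.26 to 9.66. Their Sst of 11.91 to 12.33 overlapped that of the other 9 injected arrays, 12.24 to 12.74. Their Ghrh of 8.25 to 8.75 overlapped as well, with 8.56 to 9.48 in the other 9. Sstr4 split without overlap, 8.94 to 9.10 in these 4 arrays and 9.12 to 9.23 in the other 9 injected arrays.

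Without these 4 arrays, a comparison chosen after seeing the data, the Sst difference in 79Q vs. WT was -0.19 (SE 0.079, unadjusted p = 0.0298, limma adjusted p = 0.430), with 4 of the remaining 5 arrays below every control, and in 18Q vs. WT it was -0.060. The Ghrh difference was -0.22 in 79Q vs. WT (limma adjusted p = 0.568) and -0.43 in 79Q vs. 18Q (unadjusted p = 0.00382, limma adjusted p = 1.0). Sstr4 moved to -0.034 in 79Q vs. WT and -0.060 in 18Q vs. WT, and Sstr1 in 79Q vs. WT to -0.14. The number of members called stayed at 0 of 8 in all 3 comparisons, as it did with the thalamus list mean as a covariate, where Sst in 79Q vs. WT was -0.19 (limma adjusted p = 0.376). Microglia markers also moved with the injection, with 4 of 6 genes passing upward in 18Q and in 79Q (Csf1r 0.65 and 0.49) and list means of 8.47 to 9.11 in all 13 injected arrays against 8.17 to 8.28 in the controls. Of the other marker lists, 1 of 8 neuron genes passed the threshold downward (Eno2, -0.14) and 2 of 5 astrocyte genes upward (Gfap 0.77 and Aqp4 0.52) in 18Q, none of either in 79Q, and none of the cortex and hippocampus, striatum, pituitary and oligodendrocyte genes in both. The pituitary list mean was 6.46 to 7.01 in the controls, 6.93 to 8.47 in 18Q and 6.56 to 8.19 in 79Q, and 6 of 6 of its genes were above 0 in 18Q vs. WT, 2 of them with an unadjusted p under 0.05 (Gh 1.65 and Prl 3.13, limma adjusted p of 0.251 and 0.171). The part of microglia, other glia, pituitary and tissue share in the member differences was not tested.

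**Figure D3:**
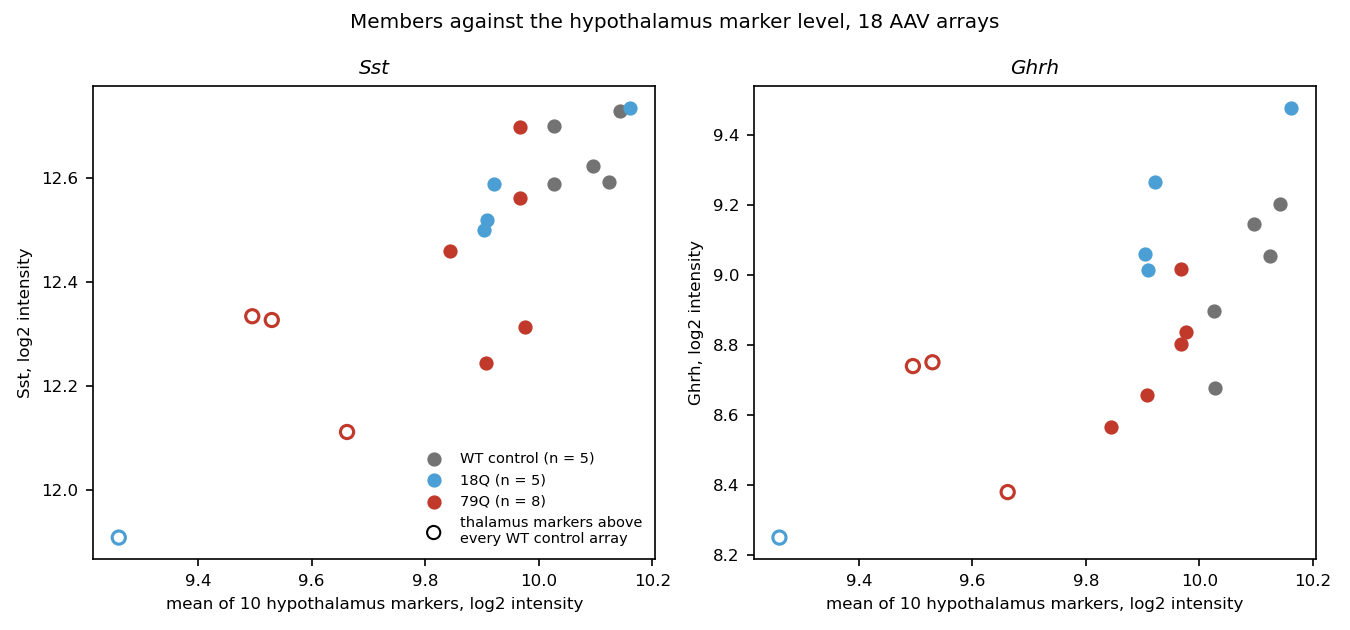
Sst and Ghrh log2 intensity in the 18 AAV arrays against the mean log2 intensity of the 10 hypothalamus markers, with open circles for the 4 injected arrays whose thalamus markers exceeded every control. These 4 arrays have the 4 lowest marker means (9.26 to 9.66), and the lowest array on both axes is 18Q replicate 3.

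The genes around the members were described by lists. The growth hormone axis list, with receptors for GHRH, ghrelin, growth hormone and insulin-like growth factors (IGFs) and their downstream genes, had 0 of 17 genes past the threshold in each of the 6 comparisons. Its 2 genes of smallest p were Igf2, a fetal growth factor that vessels and meninges also express, at 0.38 in 18Q vs. WT (SE 0.099, limma adjusted p = 0.0597), and Jak2, the kinase of the growth hormone receptor, at 0.13 in 18Q vs. WT (limma adjusted p = 0.0983). Ghrhr, the GHRH receptor, differed by 0.021 in 18Q vs. WT and -0.0071 in 79Q vs. WT. Of 12 measured transcription factors of Ghrh and Sst neurons, Ikzf1 alone passed, at 0.55 in 18Q vs. WT (SE 0.12, limma adjusted p = 0.0145) and 0.42 in 79Q vs. WT (SE 0.11, limma adjusted p = 0.0438). Ikzf1 (Ikaros) is foremost a factor of immune cells, and it rose in the 2 comparisons in which microglia markers rose. These comparisons share the control arrays, and the cell source of the Ikzf1 rise was not tested. The Ikzf1 call in 18Q was lost without 18Q replicate 4 (limma adjusted p = 0.0571). In 79Q it was lost without any 1 of the 5 controls or of 79Q replicates 1, 4, 5, 6, 7 and 8 (limma adjusted p of 0.0584 to 0.129), and without the 4 arrays named above it was 0.35 (limma adjusted p = 0.213).

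Genes that GHRH neurons co-express for other transmitters (Th, Gal, Nts, Gad1, Gad2 and Slc32a1) were all below 0 in 79Q vs. WT, 6 of 6 with a median of -0.23, and 5 of 6 in 18Q vs. WT with a median of -0.083. Gad1, a GABA-synthesizing enzyme of most inhibitory neurons, passed in 79Q vs. WT (-0.21, SE 0.049, limma adjusted p = 0.0275). Its array values did not overlap, with 11.17 to 11.38 in the 79Q arrays against 11.45 to 11.62 in the control arrays. In this comparison 2.71% of all probe sets had groups without overlap. Gad1 was named because it passed here, so the lack of overlap is no separate evidence. The Gad1 call was lost without 79Q replicate 6, 7 or 8 or control replicate 1, 2, 5 or 7, each left out alone (limma adjusted p of 0.0507 to 0.0998), and without the 4 arrays named above (-0.16, limma adjusted p = 0.208). Other hypothalamic neuropeptides were below 0 for 23 of 24 genes in 79Q vs. WT (median -0.28) and 22 of 24 in 18Q vs. WT (median -0.15). In that list Nms (neuromedin S, a peptide of the suprachiasmatic nucleus) fell by 0.72 (limma adjusted p = 0.0229) and Penk (proenkephalin) fell by 0.29 (limma adjusted p = 0.0297) in 79Q vs. WT, and 0 of 24 passed in 18Q vs. WT. The Nms call was lost without control replicate 2 or 5 (limma adjusted p of 0.0736 and 0.0756) and the Penk call without 79Q replicate 6, 7 or 8 or any 1 of the 5 controls (0.0513 to 0.0881). Without the 4 arrays named above, the differences were -0.52 for Nms (limma adjusted p = 0.149) and -0.22 for Penk (limma adjusted p = 0.0921). This list and the hypothalamus markers share 5 genes. The Sst and Ghrh differences in 79Q vs. WT, -0.27 and -0.28, were close to the median of that neuropeptide list.

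Prohormone processing genes, which cut and amidate such peptides, had 0 of 10 past the threshold in each comparison, and the 2 of smallest p were Scg5, a chaperone of the convertase PC2, at -0.17 in BACHD vs. WT at 2 months (limma adjusted p = 0.939) and Chgb, a granule protein, at -0.16 in 79Q vs. WT (limma adjusted p = 0.127). Genes of receptor signalling (G protein subunits, inwardly rectifying potassium channels, phosphatases, arrestins and adenylyl cyclases) had 0 of 17 past it. Here Ptpn6, a tyrosine phosphatase named for somatostatin receptor signalling and abundant in blood cells and microglia, had values of 0.46 in 18Q vs. WT (limma adjusted p = 0.0511) and 0.38 in 79Q vs. WT (limma adjusted p = 0.0767). The other gene of smallest p, Gnaz, an inhibitory G protein subunit, had -0.16 in 18Q vs. WT (limma adjusted p = 0.162).

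**Figure D4:**
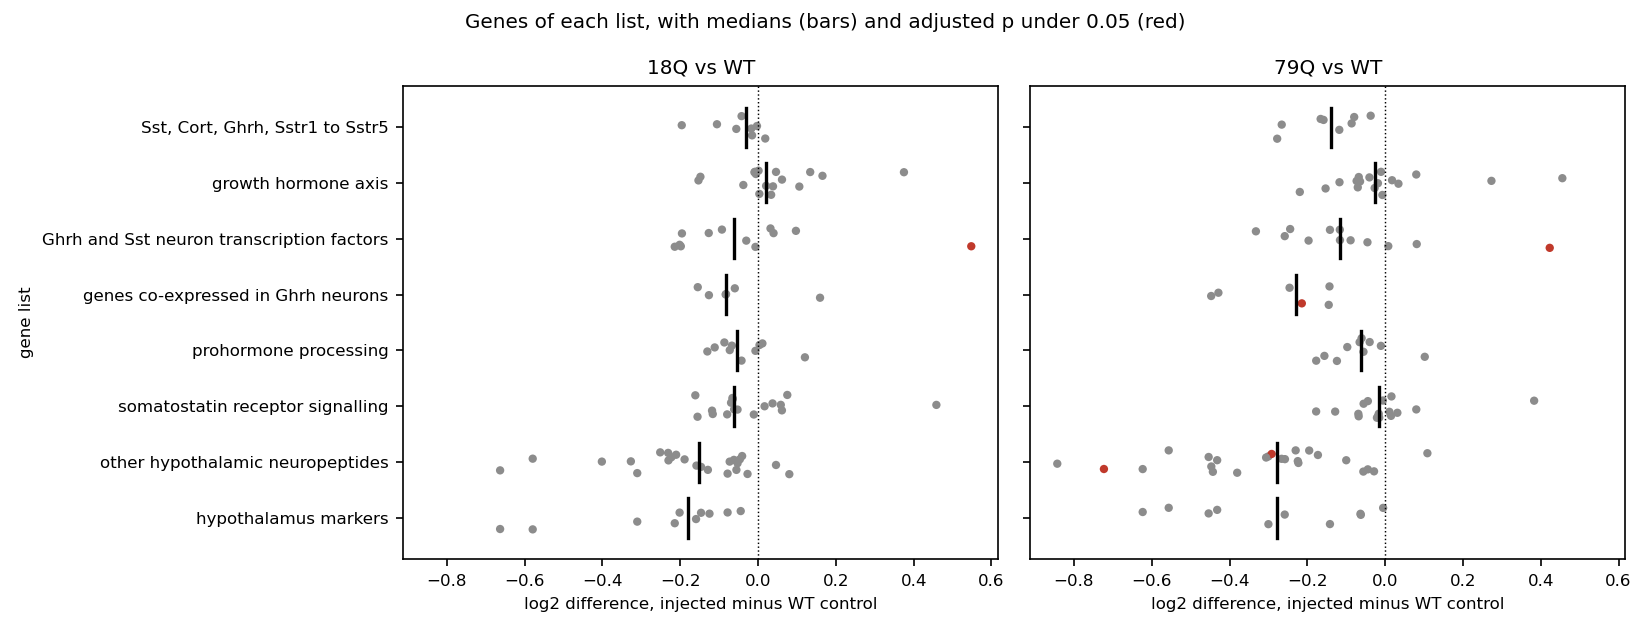
Log2 difference from WT control of each gene (points) in 8 lists for 18Q and 79Q, with the list median as a bar and genes with limma adjusted p under 0.05 in red. In 79Q vs. WT the bar of the neuropeptides and that of the hypothalamus markers both stand at -0.28, that of the co-expressed genes at -0.23 and that of the 8 members at -0.14.

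The BACHD comparison at 2 months addressed an early stage of disease. Ghrh in WT ran from 9.08 over a median of 9.30 to 9.63, and in BACHD from 8.99 over 9.59 to 10.09. BACHD replicate 5 had the highest Ghrh value of all 38 arrays and BACHD replicate 2 was below every WT, so that the groups overlapped in both directions. The difference was 0.25 (SE 0.15, 95% CI -0.087 to 0.58, limma adjusted p = 0.939, exact permutation p = 0.184), with 5 of 6 BACHD arrays above the WT mean. Without BACHD replicate 2 it was 0.36 (unadjusted p = 0.0148), and without BACHD replicate 5 it was 0.14. Sst ran from 12.23 over 12.48 to 12.68 in WT and from 12.36 over 12.61 to 12.80 in BACHD, a difference of 0.10 (95% CI -0.094 to 0.30, exact permutation p = 0.301). Sstr2 ran from 8.93 over 9.13 to 9.37 in WT and from 8.96 over 9.25 to 9.35 in BACHD, a difference of 0.093 (95% CI -0.086 to 0.27). For Sst and Sstr2 the 2 groups overlapped over most of their range.

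Sstr1 and Sstr4 at 2 months had differences of -0.035 and 0.057, and Cort, Sstr3 and Sstr5 ran from -0.046 to 0.067. At this age 0 of 8 members passed, where 0% of all probe sets passed, and 0 of 8 had an unadjusted limma p under 0.05, against 4.09% of all. None had groups that did not overlap, against 0.121% of all, and 3 of 8 were below 0, against 65.7% of all. The thalamus list varied widely at this age, from 8.40 to 10.36 in WT and from 8.21 to 10.35 in BACHD, with 8 of 8 thalamus genes below 0 in BACHD (median -0.33) and 0 of 8 past the threshold. With this list mean as a covariate, the Ghrh difference was 0.17, that of Sst 0.089 and that of Sstr2 0.038, all with limma adjusted p of 0.999.

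At 10 months, a late stage, Sstr2 was the member whose groups did not overlap. It was 9.49, 9.48 and 9.62 in the 3 WT arrays and 9.43, 9.45, 9.36, 9.43 and 9.39 in the 5 BACHD arrays. Every BACHD array was below every WT array, by a small step, and 3.49% of all probe sets had groups without overlap in this comparison. The difference was -0.12 (SE 0.048, 95% CI -0.23 to -0.0062), with limma adjusted p = 0.997 and an exact permutation p of 0.0357, the smallest that 5 against 3 mice can give. Without WT replicate 3 it was -0.070 (unadjusted p = 0.159). Sst was 12.12, 12.54 and 12.70 in WT and 12.64, 12.20, 12.32, 12.21 and 12.31 in BACHD. The WT arrays spanned the BACHD arrays on both sides, and the difference of -0.12 (95% CI -0.45 to 0.21, limma adjusted p = 0.997) moved to 0.0048 without WT replicate 3 and to -0.28 without WT replicate 1.

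Ghrh at 10 months was 9.16, 9.52 and 9.57 in WT and 9.58, 9.53, 9.44, 9.38 and 9.55 in BACHD, a difference of 0.077 (95% CI -0.14 to 0.30). Both groups overlapped. Sstr1 differed by -0.093 (95% CI -0.24 to 0.054, exact permutation p = 0.179), with -0.16 without WT replicate 1 (unadjusted p = 0.0333) and -0.050 without WT replicate 3. Sstr4 differed by 0.024. Cort, Sstr3 and Sstr5 ran from -0.051 to 0.10. In all, 0 of 8 members passed, where 0% of all probe sets passed, 1 of 8 had an unadjusted limma p under 0.05, against 4.55% of all, and 4 of 8 were below 0, against 46.1% of all.

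The change of the genotype difference with age was tested directly. It was -0.21 for Sstr2 (SE 0.11, 95% CI -0.44 to 0.025, unadjusted p = 0.0775), -0.22 for Sst (95% CI -0.57 to 0.13) and -0.17 for Ghrh (95% CI -0.63 to 0.29), all with limma adjusted p of 1.0, so that 0 of 8 members passed, as 0% of all probe sets did. With the thalamus list mean as a covariate the values were -0.11 for Sstr2, -0.21 for Sst and -0.040 for Ghrh. Leaving out 1 array at a time, Sst ran from -0.38 (without WT replicate 1 at 10 months) to -0.097 (without WT replicate 3 at 10 months), and Ghrh from -0.30 (without WT replicate 1 at 10 months) to -0.063 (without BACHD replicate 5 at 2 months). None of the 8 members had an unadjusted p under 0.05, against 2.62% of all probe sets, and 6 of 8 were below 0, against 35.4% of all. Over the 5 group comparisons, 40 exact permutation tests of members were computed, and 5 gave a p under 0.05 before any adjustment. These were Sst, Ghrh, Sstr1 and Sstr4 in 79Q vs. WT and Sstr2 at 10 months. The exact test was not run over all probe sets, so this count has no share of its own beside it. By unadjusted limma p under 0.05, the share of all probe sets was 14% in 79Q vs. WT and 4.55% at 10 months.

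From mouse to mouse within groups, each pair of the 5 brighter members had a correlation above 0 over the 38 arrays. The 28 pairs of all 8 members ran from -0.39 to 0.76, with 13 below 0 and 6 above 0.5. The lowest value was that of Cort and Ghrh, which had -0.27 in the AAV arrays, -0.82 at 2 months and 0.79 at 10 months. Across the 38 arrays, with each group's mean removed, Sst and Ghrh had a Pearson r of 0.76 and a Spearman rho of 0.67, given as a description. The value was 0.86 in the 18 AAV arrays, 0.66 in the 12 arrays at 2 months and 0.84 in the 8 arrays at 10 months. It was 0.68 without 18Q replicate 3 and 0.66 without the 2 arrays farthest from the Sst median (18Q replicate 3 and 79Q replicate 5). All 10 pairs among Sst, Ghrh, Sstr1, Sstr2 and Sstr4 had an r above 0, from 0.37 to 0.76, and from 0.26 to 0.68 without 18Q replicate 3. Sst and Sstr4 had 0.61, Ghrh and Sstr2 0.61, and Sstr2 and Sstr4 0.58. Single experiments varied. Sst and Sstr1 had 0.51 in the AAV arrays, 0.046 at 2 months and 0.91 at 10 months, and Sst and Sstr2 had 0.67, 0.19 and 0.42. Without 18Q replicate 3 and BACHD replicate 2 at 2 months, Ghrh and Sstr1 had 0.15 and Sstr1 and Sstr4 had 0.21. Arrays share dissection, RNA and array processing, and these values carry no test.

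**Figure D5:**
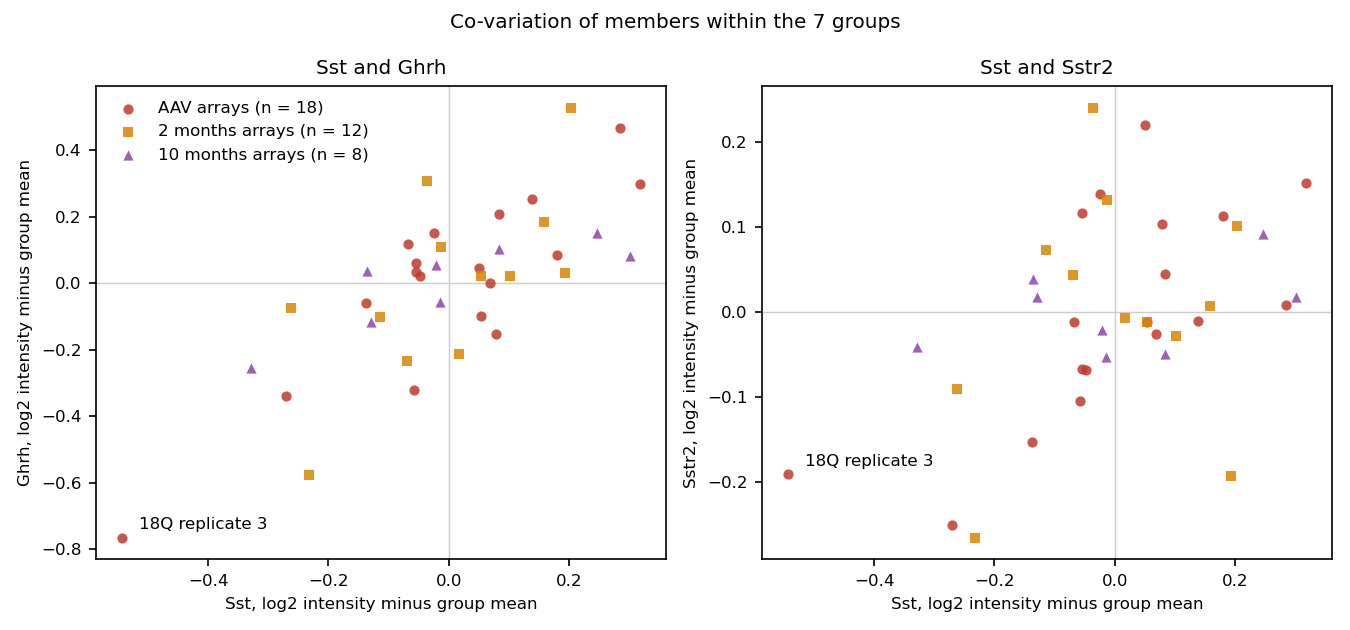
Sst against Ghrh (left) and against Sstr2 (right) in the 38 arrays, each as log2 intensity minus the mean of its group, with the 3 experiments by colour and marker. Sst and Ghrh lie along a rising band (r = 0.76, and 0.68 without the labelled array), and Sst and Sstr2 form a looser one (r = 0.46).

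The tissue marker lists differed in how they varied with the members. With group means removed, Sst had an r of 0.74 with the hypothalamus list mean and 0.79 with the neuropeptide list mean over the 38 arrays, and Ghrh had 0.73 and 0.78. With the thalamus list mean, Sst had -0.20 and Ghrh -0.43, and Sstr2 had -0.83 in the 12 arrays at 2 months against 0.17 in the 8 arrays at 10 months. Sstr4 had -0.63 over all arrays and -0.75, -0.64 and -0.47 in the AAV, 2 months and 10 months arrays. The pituitary list, which ran from 5.98 to 10.29 over the arrays, had an r of 0.18 with Sst and -0.025 with Ghrh.

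Among the other 19936 genes, the 3 most like Sst by this r over 38 arrays were Cited1 (0.89), a transcriptional co-regulator, Plxdc1 (0.83), a membrane protein of the plexin domain family, and Amigo2 (0.80), a cell adhesion protein. Those most like Ghrh were Usp51 (0.89), a deubiquitinating enzyme, Nmur2 (0.87), a receptor for neuromedins U and S, and Ets2 (0.86), a transcription factor. Without 18Q replicate 3 the 6 values were 0.73 to 0.86. In 79Q vs. WT these 6 genes differed by -0.37 (Usp51) to -0.21 (Amigo2), with limma adjusted p of 0.119 or more. They were also below 0 in 18Q vs. WT, by -0.28 (Usp51) to -0.15 (Amigo2), with limma adjusted p of 0.255 or more. In 79Q vs. 18Q they differed by -0.097 (Nmur2) to -0.026 (Plxdc1).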

How the data were processed

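The deposited values are log2 intensities from RMA (affy 1.70.0 under R 4.1.1), which subtracts background, sets arrays to one distribution by quantiles and summarizes probes by a polish. The authors used limma 3.48.3 for their own tests. They had left out RNA of poor integrity. Quantile normalization hides a change common to most genes. In the platform table, 21640 of 34760 probe sets have 1 symbol, 1321 have several and 11799 have none. Arrays have no depth, and the number of mice limits the precision. Scan and slide batches are not given in the sources used here.

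Each probe set was fitted with limma 3.58.1 (R 4.3.3, 1 mean per group, default empirical Bayes), the 18 AAV arrays in one model, each BACHD age in its own, and all 20 BACHD and WT littermate arrays for the change with age. The Benjamini-Hochberg adjustment took in the whole table, a threshold of 0.05 was used, and p-values measure only the spread between mice. For single members an exact two-sided permutation test (scipy 1.17.1, doubling the smaller tail) was added without adjustment. Its lowest possible p was 0.00794 (5 mice against 5), 0.00155 (8 against 5), 0.00216 (6 against 6) or 0.0357 (5 against 3). On simulated data with 200 changed probe sets of 34760, true shifts of 0.5 were called for 146 (18Q vs. WT), 155 (79Q vs. WT), 163 (79Q vs. 18Q), 135 (BACHD, 2 months) and 119 (BACHD, 10 months). The changed probe sets were drawn at random and the noise was independent. Shifts as small as the member differences were not simulated, so these counts do not give the recovery for the members.

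The members and lists were chosen with earlier results of these data known. Named genes were the members, list genes past the threshold (at most 4, otherwise up to 2 of smallest p), the 3 genes of highest r to Sst and to Ghrh, and markers whose list moved with a member. With several probe sets per gene, the brightest was used. Some genes of the lists are not reported here. Alternatives were median centring, a filter on dim probe sets, trend and robust settings, array weights, the replicate number as a block, fitting only the groups compared, leaving out each replicate and, after seeing the data, the thalamus marker mean as a covariate and leaving out the 4 arrays highest in it.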

Additional observations from a re-analysis of the deposited data

Results flagged for a closer look

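Each member was screened for a single array far from the rest in the groups of 4 to 10 mice, by the gap to the nearest array as a share of the group's range. Of 48 member and group combinations, 2 stood out, and chance alone would be expected to mark about 1 in 20. Sst in 18Q replicate 3 was 11.91, with the next value at 12.50, a gap of 0.716 of the range against a critical 0.71. This is the array with the highest thalamus and the lowest hypothalamus marker level of the AAV experiment, 9.11 and 9.26. Sst in BACHD at 10 months was 12.64 in replicate 1, with the next value at 12.32, a gap of 0.720 of the range. The hypothalamus marker mean of that array, 10.16, was also the highest at 10 months.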

How the results depend on the processing

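No member passed the adjusted threshold under any of 938 alternative values of the 8 members (smallest limma adjusted p = 0.121), and 884 kept their direction. Under every alternative, 0 probe sets of the whole table were called at either BACHD age or in the change with age. In 79Q vs. 18Q at most 1 was called. In these comparisons the lack of member calls is therefore not particular to the members. The filter on dim probe sets removed Sstr5. The 54 that turned were at most 0.098 in size, and their cause was not tested. Median centring gave -0.014 for Ghrh in 18Q vs. WT, and 0.025 for Cort, 0.015 for Sstr1 and 0.0038 for Sstr3 in BACHD at 2 months. Array weights gave 0.038 for Sstr1 and 0.024 for Sstr2 in 18Q vs. WT, -0.0014 for Sstr4 in 79Q vs. 18Q and 0.054 for Sstr1 at 2 months. The thalamus covariate gave 0.020 for Sstr1, 0.0022 for Sstr2 and 0.016 for Sstr5 in 18Q vs. WT, and 0.0094 for Sstr1 and 0.058 for Sstr4 in the change with age. Without the 4 arrays highest in thalamus markers, 18Q vs. WT was 0.059 for Sstr1, 0.032 for Sstr2 and 0.017 for Sstr5, Sstr3 in 79Q vs. WT was 0.022 and Cort in 79Q vs. 18Q was 0.038.

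Most same-numbered arrays did not deviate together (correlations of -0.31 to 0.28 over the 5 comparisons, with 2 of the 6 pairs at 2 months over 0.1). Whether same-numbered mice share anything besides the number is not given in the sources used here. With the replicate number as a block, 0 members were called, 402 probe sets were called in 79Q vs. WT in place of 721 and 555 in 18Q vs. WT in place of 735, and turned values were 0.022 for Sstr1 and 0.013 for Sstr2 in 18Q vs. WT and 0.0010 for Cort in 79Q vs. 18Q. Under the block the limma adjusted p was 0.182 for Gad1, 0.169 for Nms, 0.252 for Penk and 0.104 for Ikzf1 in 79Q vs. WT. The 79Q count was 1092 with array weights and 352 without the 4 arrays.

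Leaving out 1 array at a time, the 18Q count ran from 472 to 1129, the 79Q count from 439 to 811 and that of 79Q vs. 18Q from 0 to 1. For members that turned, the ranges in 18Q vs. WT were -0.098 to 0.21 (Ghrh), -0.047 to 0.059 (Sstr1), -0.070 to 0.032 (Sstr2) and -0.062 to 0.035 (Sstr5), and for Sstr3 in 79Q vs. WT -0.066 to 0.0035. In 79Q vs. 18Q they were -0.21 to 0.0017 (Sst), -0.081 to 0.0053 (Cort), -0.024 to 0.048 (Sstr3) and -0.020 to 0.053 (Sstr4). At 2 months they were -0.071 to 0.028 (Cort), -0.086 to 0.031 (Sstr1) and -0.0023 to 0.10 (Sstr4), at 10 months -0.28 to 0.0048 (Sst), -0.050 to 0.15 (Ghrh), -0.027 to 0.061 (Sstr4) and -0.13 to 0.029 (Sstr5), and in the change with age -0.084 to 0.026 (Sstr4). Among brighter members that kept their direction, values also moved by over 1.5 times for Sst (-0.27 to -0.060, highest without 18Q replicate 3) and Sstr4 (-0.13 to -0.060, likewise) in 18Q vs. WT, for Sstr2 in 79Q vs. 18Q (-0.15 to -0.047, highest without 18Q replicate 4), and at 2 months for Sst (0.049 without WT replicate 1 to 0.15 without BACHD replicate 2) and Sstr2 (0.055 without WT replicate 3 to 0.15 without BACHD replicate 2).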
